A study of Rattus norvegicus with 9 samples.

Results

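The 38 genes described here encode the enzymes and transporters of glycolysis, the HIF-1 subunit Hif1a and a set of well-known HIF-1 targets. They were chosen by symbol from a list of members, and all 38 were found among the 20442 genes of the expression table. RNA sequencing had been run on dendritic cells grown from rat bone marrow, cells that take up and present antigen and that arise when marrow is cultured with GM-CSF and IL-4, here at 20 ng/mL each in medium with 10% serum. LPS+EVs cultures (n = 3) were given bacterial lipopolysaccharide together with extracellular vesicles derived from ASCs. LPS cultures (n = 3) were given lipopolysaccharide alone, and Control cultures (n = 3) are labelled as having no treatment. All cultures were of wild-type genotype and all were primary cells, with no strain, age or sex in the labels used here. LPS was used at 1 µg/mL for 24 h. The protocol text of every sample also lists 50 ng/mL of something it does not name. Whether that is the vesicles is not stated, and the vesicle dose is not known here. If it went to the treated cultures alone, what it did cannot be told apart from what LPS did. The design text gives the purpose as finding how the vesicles act on dendritic cells. The labels call the libraries biological replicates without saying that they came from separate animals, so p-values measure the spread between these libraries only.

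Glycolysis splits glucose into pyruvate in the cytosol, and pyruvate is then either reduced to lactate and exported or passed to the mitochondria. HIF-1 is a transcription factor made of Hif1a and Arnt; with oxygen present, the prolyl hydroxylases of the Egln family mark Hif1a protein for destruction through Vhl, and without it HIF-1 switches on glycolytic genes, glucose and lactate transporters and genes for vessel growth and survival. In macrophages and dendritic cells LPS is known to raise Hif1a and glycolysis in the presence of oxygen as well.

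Each library had 32148519 to 39407116 gene-assigned reads (1.23-fold range), recovered from the steps of the deposited FPKM, which scales fragments to gene length and library depth. For a gene 1 kilobase long, 3 reads are worth 0.0761 to 0.0933 FPKM, which bounds counting error only. The 38 genes took 3.03, 2.75 and 2.71% of the assigned reads in the LPS+EVs libraries, 3.11, 2.68 and 2.83% in the LPS libraries and 1.91, 1.47 and 1.68% in the Control libraries (numbers 1, 2 and 3 of each group, an order kept below). The 3 libraries numbered 2 stood apart in all groups: they had the highest summed dendritic cell markers (8904, 8528 and 10049 FPKM in LPS+EVs, LPS and Control, against 1371 to 3685 FPKM in the other 6 libraries). Most of that sum was Cd74, the class II invariant chain, at 6102, 5855 and 6137 FPKM in these 3 and 939 to 2550.3 FPKM in the other 6. The class II chain RT1-Bb was set further apart, at 788, 728 and 1003 FPKM in these 3 and 8.38 to 104 FPKM in the other 6. Not every listed dendritic cell marker was highest there: Sirpa was at 71.4 FPKM in LPS library 2, against 94.2 and 103 FPKM in LPS libraries 1 and 3. The libraries numbered 2 were also the highest of their group in summed macrophage and monocyte markers (6942, 7167 and 9024 FPKM). They also had the lowest summed stromal markers of their group (285, 218 and 680.2 FPKM, against 795 to 1669 FPKM in the other 6). Of the dendritic cell markers, Itgax was at 29.8 to 52.0 FPKM, while Flt3, Clec9a and Xcr1 were at 0.437 FPKM or less in every library. Summed proliferation genes were at 64.2 to 81.1 FPKM in LPS+EVs libraries, 67.0 to 120.3 FPKM in LPS libraries and 647 to 734 FPKM in Control libraries, and summed erythroid markers at 4.01 to 9.11, 5.28 to 9.98 and 55.8 to 448 FPKM. The summed macrophage and monocyte markers were at 4279.8 to 6942 FPKM in LPS+EVs libraries, 3749 to 7167 FPKM in LPS libraries and 7141 to 9024 FPKM in Control libraries. Most of that sum was Lyz2 (5323 FPKM in LPS library 2 and 6588 FPKM in Control library 1). Of 15 tested macrophage and monocyte markers 9 fell in LPS against Control and 2 rose, Cd14 (log2 change 1.26) and Cd68 (0.33). Summed neutrophil markers were at 163 to 668 FPKM in LPS+EVs libraries, 136 to 719 FPKM in LPS libraries and 76.3 to 406 FPKM in Control libraries, and T, NK, B and plasma cell markers summed to 5.55 FPKM or less per list. In treated libraries most of the neutrophil sum was Mmp9 and Lcn2 (475 and 240 FPKM in LPS library 3). Of 7 tested neutrophil markers 1 rose in LPS against Control, Lcn2 (log2 change 4.65). The 3 that fell were Cxcr2 (-3.92), S100a8 (-4.51) and Csf3r (-1.66). Over all tested genes 12.3% rose and 28.7% fell. Megakaryocyte and platelet markers summed to 611 to 1444 FPKM in LPS+EVs libraries, 599.7 to 1932 FPKM in LPS libraries and 431 to 1061 FPKM in Control libraries. The table held 18 of 18 dendritic, 16 of 16 macrophage, 12 of 13 neutrophil, 5 of 6 megakaryocyte, 5 of 10 T and NK, 5 of 8 B and plasma cell, 9 of 13 erythroid, 16 of 17 stromal and 15 of 15 proliferation genes. The marker shifts between treated and Control libraries moved with LPS, as the genes below did, and their part in the results was not tested. In bulk RNA, more cells of a type and more RNA per cell cannot be told apart.

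Most of the 38 genes were higher with LPS. Between LPS and Control cultures, 22 of the 38 genes rose and none fell (limma on log2(FPKM + 1), adjusted p under 0.05 over 11141 tested genes), where 12.3% of all tested genes rose and 28.7% fell. Their median log2 change was 0.74, against -0.19 for all tested genes. When libraries were scaled by the median of ratios the median of all genes was 0.01, 29 members rose and 0 fell, and 18.3% of all tested genes rose and 20.3% fell, a shift of the whole table against which the changes below are to be read. Each replicate number could be followed through the groups: 28 members were higher in LPS than in Control within 3 of 3 numbers (24.0% of all tested genes) and none was lower in all 3 (45.8% of all). With the replicate number as a block in the fit, 26 members rose and none fell, where 17.2% of all genes rose and 35.5% fell. In 23 members all LPS libraries lay above all Control libraries, which held for 17.5% of all tested genes, and 16 members rose by at least 2-fold, as did 4.92% of all tested genes.

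**Figure D1:**
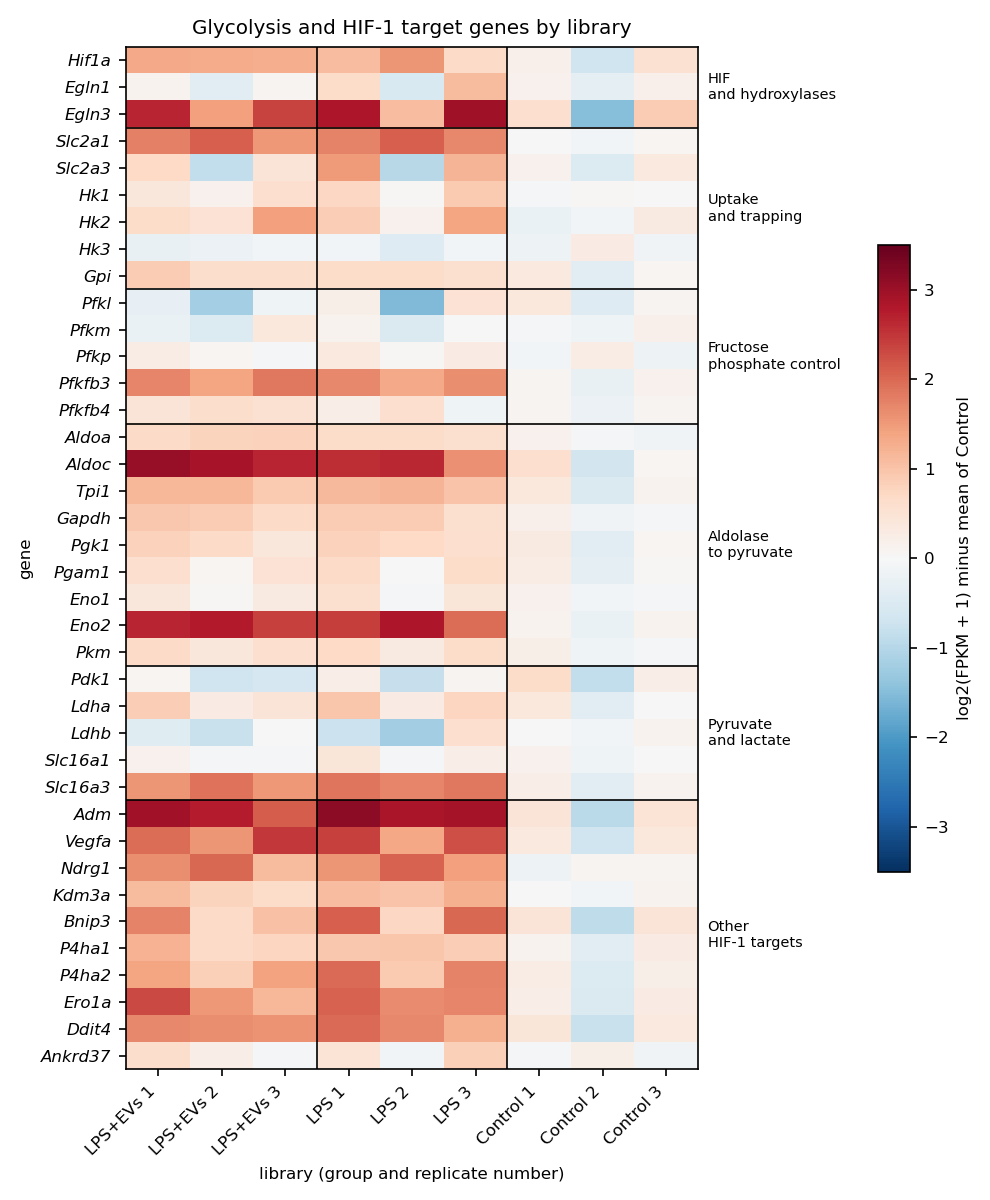
Level of each of the 38 genes in each of the 9 libraries as log2(FPKM + 1) minus the mean of the 3 Control libraries, with red above and blue below that mean, genes in rows by role and libraries in columns by group and replicate number. Egln3, Slc2a1, Aldoc, Eno2 and Adm are red in all LPS+EVs and LPS libraries, while Hk3, Pfkl, Pfkm and Pdk1 stay near or below the Control mean in many of them.

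Hif1a, the oxygen-regulated subunit of HIF-1, had 129, 127 and 126 FPKM in LPS+EVs libraries, 109.5, 151 and 82.7 FPKM in LPS libraries and 57.9, 31.2 and 74.3 FPKM in Control libraries. The LPS and Control values did not overlap, but LPS library 3 was only slightly above Control library 3, and the LPS+EVs values lay very close together. Hif1a rose in LPS against Control (log2 change 1.10, SE 0.31, limma adjusted p = 0.0215). That call was lost without LPS replicate 1 (adjusted p = 0.0526, limma) and without LPS replicate 2 (adjusted p = 0.0562, limma), with no filter (0.0505) and in the 6 libraries alone (0.0504). The differences within numbers were 0.91, 2.24 and 0.15 on the log2 scale, largest in number 2, whose Control library held the lowest Hif1a level of all.

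The prolyl hydroxylases behaved unequally. Egln3, an isoform that is itself a HIF-1 target, had 25.6, 10.2 and 20.4 FPKM in LPS+EVs libraries, 28.9, 7.75 and 31.8 FPKM in LPS libraries and 5.27, 0.495 and 6.73 FPKM in Control libraries, with Control library 2 resting on 46 reads. Within each group number 2 was the lowest, and the rise within numbers was 2.25, 2.55 and 2.09 on the log2 scale. Egln3 rose in LPS against Control (log2 change 2.30, SE 0.71, limma adjusted p = 0.0309; with the replicate block adjusted p = 0.000205). Without the block the call was lost without LPS replicate 1, LPS replicate 3 or Control replicate 2 (limma adjusted p = 0.0921, 0.0862 and 0.0832), with no filter (0.0728), in the 6 libraries alone (0.0541) and by limma-voom on recovered reads (0.0542). Egln1, the main oxygen-sensing hydroxylase in most cells, had 24, 16.5 and 23.3 FPKM in LPS+EVs libraries, 34.7, 14.9 and 48.2 FPKM in LPS libraries and 24.5, 17 and 25.1 FPKM in Control libraries. LPS libraries 1 and 3 were above every Control library and LPS library 2 below every one, and Egln1 did not pass in LPS against Control (log2 change 0.40, 95% interval -0.45 to 1.26, limma adjusted p = 0.419). Without LPS replicate 2 it was called (log2 change 0.87, limma adjusted p = 0.0207).

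Of the 2 glucose transporters 1 rose. Slc2a1, the transporter GLUT1 that most cells use for basal glucose uptake, had 392, 497 and 331 FPKM in LPS+EVs libraries, 386, 496 and 374 FPKM in LPS libraries and 116, 108 and 121 FPKM in Control libraries. The LPS and Control ranges lay far apart and Slc2a1 rose (log2 change 1.85, SE 0.17, limma adjusted p = 9.56e-05). Slc2a3, the high-affinity transporter GLUT3, had 13.9, 4.05 and 11.6 FPKM in LPS+EVs libraries, 25, 3.71 and 19.8 FPKM in LPS libraries and 9.15, 5.56 and 10.6 FPKM in Control libraries. In numbers 1 and 3 it was higher in LPS than in Control, and in number 2 it was lower, and it did not pass (log2 change 0.58, 95% interval -0.90 to 2.06, limma adjusted p = 0.504). Without LPS replicate 2 it was called (log2 change 1.34, limma adjusted p = 0.0444), as it was in libraries 1 and 3 alone (1.10, 0.00264).

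The hexokinases, which trap glucose in the cell as glucose phosphate, did not move as one. Hk2, the inducible isoform bound to mitochondria, had 77.7, 70.6 and 136 FPKM in LPS+EVs libraries, 90.9, 54.3 and 131 FPKM in LPS libraries and 42.2, 46.2 and 61.4 FPKM in Control libraries. In each number the LPS library was above the Control library, but LPS library 2 lay below Control library 3. Hk2 was not called in LPS against Control without the block (log2 change 0.80, SE 0.35, limma adjusted p = 0.0946) and was called with it (adjusted p = 0.00635, limma). Hk1, the isoform present in most tissues, had 65, 55.4 and 75.8 FPKM in LPS+EVs libraries, 82.6, 50.9 and 95.1 FPKM in LPS libraries and 47.7, 50.8 and 50.4 FPKM in Control libraries. LPS libraries 1 and 3 were higher than Control and library 2 was level with it. Hk1 too was called with the block and not without it (log2 change 0.56, SE 0.22, limma adjusted p = 0.0701 without and 0.0240 with it). Without LPS replicate 2, in libraries 1 and 3 alone and under median-of-ratios scaling both were called without a block (without LPS replicate 2, limma adjusted p = 0.0199 for Hk2 and 0.00344 for Hk1). Hk3, the isoform of myeloid cells, had 127, 133 and 144 FPKM in LPS+EVs libraries, 142, 111 and 143 FPKM in LPS libraries and 136, 186 and 141 FPKM in Control libraries. The groups overlapped and Hk3 did not pass (log2 change -0.22, 95% interval -0.57 to 0.13, limma adjusted p = 0.282; 0.01 under median-of-ratios scaling). Gpi, which turns glucose phosphate into fructose phosphate, averaged 528 ± 58.5 FPKM in LPS+EVs, 496 ± 16.2 FPKM in LPS and 329.8 ± 80.5 FPKM in Control (SD, n = 3 each). Gpi rose in LPS against Control (log2 change 0.62, SE 0.18, limma adjusted p = 0.024), a call that was lost without LPS replicate 1, Control replicate 2 or Control replicate 3 (limma adjusted p = 0.0655, 0.0544 and 0.0546), with no filter (0.0525) and in libraries 1 and 3 alone (0.0680). These fits had no block, and with the block and all libraries Gpi was called (limma adjusted p = 0.00853).

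At the fructose phosphate step the regulator rose and the enzyme did not pass. Pfkfb3, which makes the bisphosphate that activates phosphofructokinase, had 119.9, 95.4 and 133 FPKM in LPS+EVs libraries, 118, 91.3 and 113 FPKM in LPS libraries and 38.6, 30.1 and 40.2 FPKM in Control libraries. All 3 numbers gave nearly the same rise, 1.58, 1.57 and 1.47 on the log2 scale (log2 change 1.54, SE 0.17, limma adjusted p = 0.00026). Pfkfb4, its paralog with a stronger phosphatase activity, had 17.8, 19.9 and 18.7 FPKM in LPS+EVs libraries, 15, 19.8 and 11.4 FPKM in LPS libraries and 13.8, 10.8 and 13.8 FPKM in Control libraries. Its LPS and Control ranges overlapped, with LPS library 3 below 2 of the Control libraries, and it did not pass in LPS against Control (log2 change 0.23, 95% interval -0.20 to 0.66, limma adjusted p = 0.360).

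Of the phosphofructokinases themselves, which commit sugar to glycolysis, the liver-type Pfkl was the most abundant per length. Pfkl had 66.7, 35.2 and 72.8 FPKM in LPS+EVs libraries, 92.9, 27.2 and 116 FPKM in LPS libraries and 104, 58.5 and 86.9 FPKM in Control libraries. Number 2 was the lowest in each group, and the LPS library was below its Control library in numbers 1 and 2 and above it in number 3. The platelet-type Pfkp had 28.2, 24.9 and 22.7 FPKM in LPS+EVs libraries, 30.2, 24.5 and 29 FPKM in LPS libraries and 22, 28.6 and 20.8 FPKM in Control libraries, with overlapping groups. The muscle-type Pfkm was at 0.935, 0.616 and 1.92 FPKM in LPS+EVs libraries, 1.47, 0.594 and 1.28 FPKM in LPS libraries and 1.21, 1.05 and 1.55 FPKM in Control libraries, and rested on 70 to 198 reads per library. None of the 3 passed in LPS against Control, with log2 changes of -0.27 (95% interval -1.46 to 0.91) for Pfkl, 0.23 (-0.12 to 0.58) for Pfkp and -0.12 (-0.69 to 0.45) for Pfkm. Pfkp was called under median-of-ratios scaling (log2 change 0.45, limma adjusted p = 0.0450) and in libraries 1 and 3 alone (0.45, 0.0347).

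From aldolase to pyruvate, 7 of the 9 genes rose with LPS, and the largest log2 changes were those of the minor paralogs Aldoc and Eno2. Aldoc, the aldolase best known from brain, had 27.3, 24.4 and 20.7 FPKM in LPS+EVs libraries, 19.4, 20.4 and 9.41 FPKM in LPS libraries and 4.11, 1.17 and 2.58 FPKM in Control libraries. It was low in Control, down to 61 reads in library 2, and rose (log2 change 2.28, SE 0.36, limma adjusted p = 0.00145). Aldoa, the main aldolase, had 1804, 1952 and 1978 FPKM in LPS+EVs libraries, 1774, 1783 and 1690.1 FPKM in LPS libraries and 1265, 1113 and 1041 FPKM in Control libraries. The 3 groups of Aldoa values did not overlap with each other, and it rose in LPS against Control by a smaller step than Aldoc (log2 change 0.62, SE 0.12, limma adjusted p = 0.00371).

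Eno2, the enolase used as a marker of neurons, had 163, 175 and 134 FPKM in LPS+EVs libraries, 137, 182 and 100 FPKM in LPS libraries and 27.1, 21.2 and 27 FPKM in Control libraries. Every LPS library was more than 3 times the highest Control library, and Eno2 had the smallest adjusted p of the 38 genes in LPS against Control (log2 change 2.40, SE 0.22, limma adjusted p = 8.64e-05). Eno1, the main enolase, had 1363, 1069 and 1296 FPKM in LPS+EVs libraries, 1541, 999 and 1405 FPKM in LPS libraries and 1145, 977 and 1003 FPKM in Control libraries. It was higher in LPS than in Control within all 3 numbers but by only 0.03 in number 2, and did not pass (log2 change 0.31, 95% interval -0.10 to 0.73, limma adjusted p = 0.198; called without LPS replicate 2, 0.50 and 0.0315).

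Tpi1, Gapdh, Pgk1, Pgam1 and Pkm carry out the remaining steps, and 4 of the 5 rose in LPS against Control. Tpi1, which interconverts the 2 triose phosphates, averaged 962 ± 92.8 FPKM in LPS+EVs, 984 ± 71.1 FPKM in LPS and 468 ± 136 FPKM in Control (log2 change 1.11, SE 0.21, limma adjusted p = 0.00378). Gapdh, often used as a reference gene, averaged 3015 ± 305 FPKM in LPS+EVs, 2927 ± 371 FPKM in LPS and 1698 ± 195 FPKM in Control (log2 change 0.78, SE 0.15, limma adjusted p = 0.00457). Both had all LPS libraries above all Control libraries. Pgk1, the first ATP-forming enzyme, averaged 914 ± 131 FPKM in LPS+EVs, 954 ± 76.1 FPKM in LPS and 598 ± 139 FPKM in Control (log2 change 0.70, SE 0.19, limma adjusted p = 0.0188). Pkm, the pyruvate kinase of most tissues, averaged 919.8 ± 82.6 FPKM in LPS+EVs, 923 ± 119.6 FPKM in LPS and 630.4 ± 81.5 FPKM in Control (log2 change 0.55, SE 0.15, limma adjusted p = 0.0179). These last 2 calls were less steady. Pgk1 was lost without LPS replicate 1 or Control replicate 2 (limma adjusted p = 0.0602 and 0.0511) and in libraries 1 and 3 alone (0.0671), and Pkm without LPS replicate 1, Control replicate 2 or Control replicate 3 (0.0627, 0.0618 and 0.0618). These fits had no block, and with the block and all libraries Pgk1 and Pkm were called (limma adjusted p = 0.00686 and 0.00312). Pgam1, which moves the phosphate before enolase, averaged 569 ± 103 FPKM in LPS+EVs, 594 ± 141 FPKM in LPS and 435 ± 85.2 FPKM in Control, and was called in LPS against Control with the block and not without it (log2 change 0.44, SE 0.23, limma adjusted p = 0.161 without and 0.00829 with it). It was also called without LPS replicate 2 (limma adjusted p = 0.0381), in libraries 1 and 3 alone (0.0216) and under median-of-ratios scaling (0.0247). Genes such as Gapdh, Tpi1, Pgk1, Pgam1, Eno1 and Ldha have near-identical copies elsewhere in mammalian genomes, so their levels are uncertain where counting could split reads between copies; a separately listed triosephosphate isomerase gene, LOC500959, was at 4.73 to 16.4 FPKM.

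At the end of the pathway, the gene for lactate export rose, and that for lactate formation was called with the block and not without it. Slc16a3, the transporter MCT4 that carries lactate out of glycolytic cells, had 285, 366 and 279.8 FPKM in LPS+EVs libraries, 356, 315 and 350.3 FPKM in LPS libraries and 113, 74.9 and 106 FPKM in Control libraries. The LPS values lay close together and far above Control, and Slc16a3 rose (log2 change 1.81, SE 0.17, limma adjusted p = 0.000124). Slc16a1, the transporter MCT1 that works in either direction, had 48.5, 42.3 and 41.6 FPKM in LPS+EVs libraries, 59.6, 42.4 and 52.3 FPKM in LPS libraries and 49, 39.8 and 43.7 FPKM in Control libraries. Its groups overlapped and it did not pass (log2 change 0.21, 95% interval -0.13 to 0.54, limma adjusted p = 0.287), although it was called under median-of-ratios scaling (0.43, 0.0288). Ldha, which reduces pyruvate to lactate, had 1433, 964 and 1082 FPKM in LPS+EVs libraries, 1551, 960.3 and 1323 FPKM in LPS libraries and 1018, 611 and 800.4 FPKM in Control libraries. The 3 numbers gave nearly equal differences of 0.61, 0.65 and 0.72 on the log2 scale, while LPS library 2 lay below Control library 1. Ldha was called with the block (limma adjusted p = 0.00166) and not without it (log2 change 0.66, SE 0.25, limma adjusted p = 0.0619); it was also called without LPS replicate 2 or Control replicate 1 (limma adjusted p = 0.0261 and 0.0476), in libraries 1 and 3 alone (0.0350) and under median-of-ratios scaling (0.0146). Ldhb, the isoform of oxidative tissues, was at 1.13, 0.679 and 1.84 FPKM in LPS+EVs libraries, 0.712, 0.25 and 3.35 FPKM in LPS libraries and 1.84, 1.69 and 2.14 FPKM in Control libraries, with 13 to 183 reads per library. LPS library 3 was above all Control libraries and the other LPS libraries below, and Ldhb was called lower only when LPS replicate 3 was left out (log2 change -0.98, limma adjusted p = 0.0184, against -0.46 and 0.406 with it). Pdk1, the HIF-1 target that holds pyruvate back from the mitochondria by switching off pyruvate dehydrogenase, averaged 17.1 ± 5.47 FPKM in LPS+EVs, 20.9 ± 7.51 FPKM in LPS and 24.6 ± 12.1 FPKM in Control. It did not pass in LPS against Control (log2 change -0.16, 95% interval -1.12 to 0.80, limma adjusted p = 0.784).

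**Figure D2:**
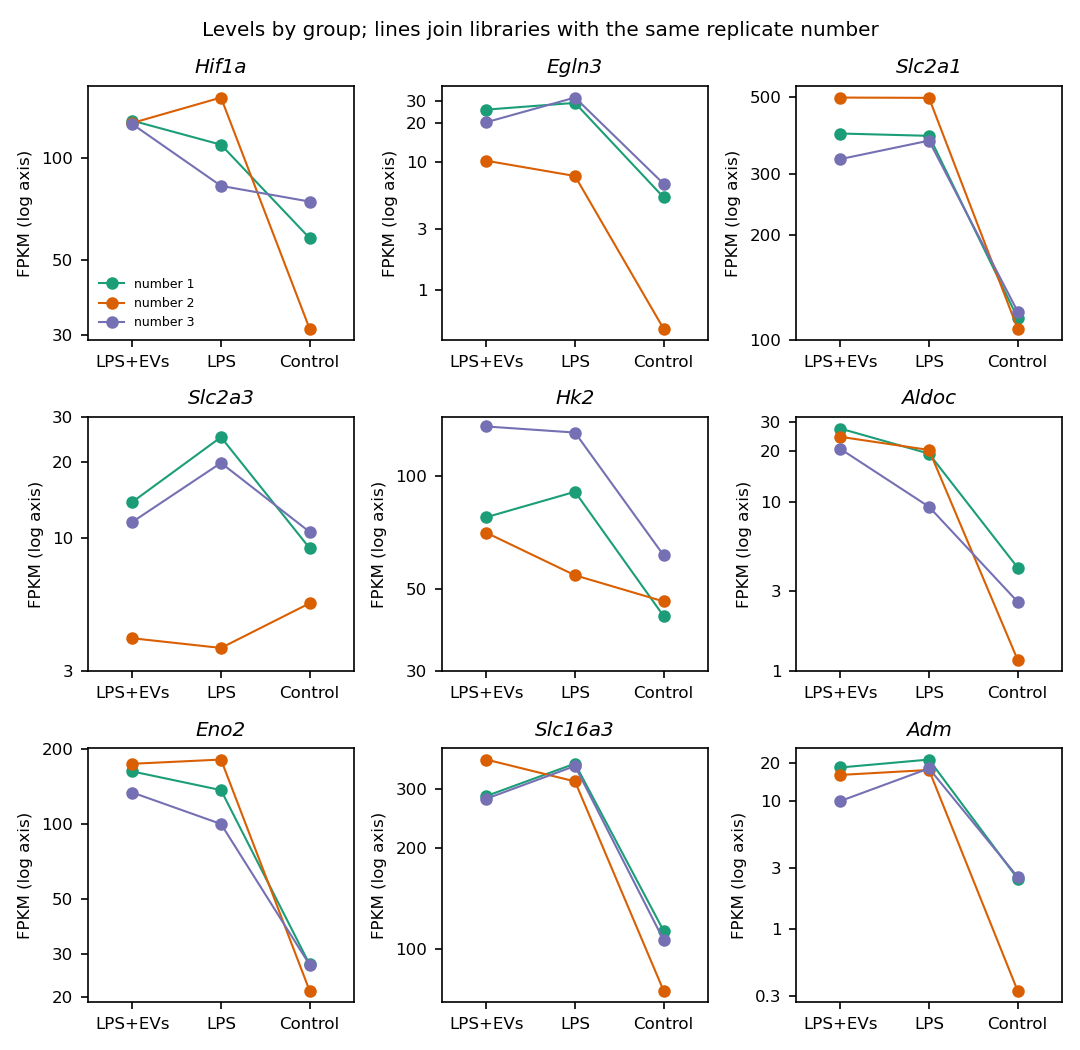
Level of 9 of the genes in FPKM on a log axis in LPS+EVs, LPS and Control libraries, with 1 point per library and lines joining libraries of the same replicate number. Slc2a1, Eno2 and Slc16a3 rise with LPS along all 3 lines, the Slc2a3 line of number 2 runs the other way (3.71 FPKM in LPS and 5.56 FPKM in Control), and the Control library 2 of Egln3 and Adm lies below 1 FPKM.

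Of the 10 other HIF-1 targets, 9 rose with LPS. Adm, the vasodilator peptide adrenomedullin, had 18.3, 16 and 10 FPKM in LPS+EVs libraries, 21.1, 17.5 and 18 FPKM in LPS libraries and 2.47, 0.328 and 2.55 FPKM in Control libraries. It showed the largest log2 change of the 38 genes (log2 change 2.96, SE 0.38, limma adjusted p = 0.000532), with Control library 2 resting on 15 reads. Ndrg1, a stress and differentiation gene, had 347, 455 and 245 FPKM in LPS+EVs libraries, 332, 474 and 305 FPKM in LPS libraries and 99.4, 119.5 and 119.6 FPKM in Control libraries. It rose in each number, most in number 2 (log2 change 1.69, SE 0.24, limma adjusted p = 0.000968). Kdm3a, a histone demethylase, had 29.3, 23.4 and 21.3 FPKM in LPS+EVs libraries, 29, 27.3 and 32.3 FPKM in LPS libraries and 13, 12.2 and 14.4 FPKM in Control libraries. Its differences within numbers were 1.10, 1.10 and 1.11 on the log2 scale, the most even of the genes shown library by library (log2 change 1.10, SE 0.14, limma adjusted p = 0.000533).

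Vegfa, the growth factor of blood vessels, averaged 96.6 ± 31.5 FPKM in LPS+EVs, 98.1 ± 33.7 FPKM in LPS and 23.9 ± 9.1 FPKM in Control, and rose (log2 change 2.0, SE 0.38, limma adjusted p = 0.00386). Ero1a, which oxidises protein disulphide isomerase in the endoplasmic reticulum, averaged 206 ± 86.2 FPKM in LPS+EVs, 218 ± 35.7 FPKM in LPS and 62.6 ± 17.5 FPKM in Control, and rose (log2 change 1.81, SE 0.31, limma adjusted p = 0.00223). P4ha1, a catalytic subunit of collagen prolyl hydroxylase, had 144, 98.7 and 105 FPKM in LPS+EVs libraries, 120, 121 and 112 FPKM in LPS libraries and 67.5, 46.3 and 75 FPKM in Control libraries. Its paralog P4ha2 had 41.1, 27.8 and 42 FPKM in LPS+EVs libraries, 62.1, 29.4 and 52.3 FPKM in LPS libraries and 18.3, 10.5 and 17.7 FPKM in Control libraries. All LPS libraries lay above all Control libraries for both, and both rose, P4ha1 by 0.92 and P4ha2 by 1.54 on the log2 scale (limma adjusted p = 0.00688 and 0.00513). Ddit4, an inhibitor of mTORC1, averaged 38.6 ± 1.4 FPKM in LPS+EVs, 39.6 ± 9.98 FPKM in LPS and 12.7 ± 5.4 FPKM in Control, and rose (log2 change 1.63, SE 0.31, limma adjusted p = 0.00404). Bnip3, a receptor for removal of mitochondria, averaged 99.6 ± 39.9 FPKM in LPS+EVs, 142 ± 62 FPKM in LPS and 45.9 ± 20.5 FPKM in Control. Bnip3 rose in LPS against Control (log2 change 1.61, SE 0.48, limma adjusted p = 0.0274; adjusted p = 0.000325 with the block, whose 3 differences were 1.64, 1.62 and 1.57), a call lost without the block when LPS replicate 1, LPS replicate 3 or Control replicate 2 was left out (limma adjusted p = 0.0872, 0.0759 and 0.0840) or no filter was used (0.0651). Ankrd37, a small ankyrin repeat protein, averaged 7.53 ± 1.93 FPKM in LPS+EVs, 8.62 ± 3.0 FPKM in LPS and 6.02 ± 0.869 FPKM in Control and was the one target that did not pass (log2 change 0.41, SE 0.26, limma adjusted p = 0.227); without LPS replicate 2 it was called (0.67, limma adjusted p = 0.0397).

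Library 2 was often the lowest of its group, both for these genes and over all tested genes, and these shares differed most in Control. Library 2 was the lowest of its group for 18 of the 38 genes in LPS+EVs (47.4%, against 50.8% of all tested genes), for 25 in LPS (65.8%, against 54.2%) and for 31 in Control (81.6%, against 41.3%). In libraries 1 and 3 alone, 29 of the 38 genes rose and 0 fell in LPS against Control (limma), where 15.9% of all tested genes rose and 28.8% fell. In LPS+EVs against LPS 0 members and 0% of all tested genes rose or fell in these libraries. In LPS+EVs against Control 24 members rose and 1 fell in them, where 16.4% of all rose and 31.9% fell.

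Adding the vesicles to LPS gave no called change in any of the 38 genes. In LPS+EVs against LPS 0 members rose and 0 fell, without and with the replicate block, and the same held for all 11141 tested genes (0% raised and 0% lowered in both fits). At an unadjusted p under 0.05 (limma without the block) there were 0 members in either direction, and 137 raised and 158 lowered genes in the whole table. The median log2 change of the 38 genes was -0.06, against -0.01 for all tested genes, with 12 members above 0 and 26 below. Limma-voom on recovered reads also called 0 members. The smallest unadjusted p without the block was 0.0989, for Kdm3a (log2 change -0.26, 95% interval -0.58 to 0.06, limma adjusted p = 0.999). With the block, the 95% intervals of Bnip3 (-0.89 to -0.03) and P4ha2 (-0.60 to -0.05) lay below 0 (limma adjusted p = 0.776 for each). These intervals are not adjusted for the number of genes, so some of 38 can lie to 1 side of 0 without any change. How many of all tested genes had such an interval with the block was not counted.

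The precision of this comparison differed between genes. For 29 of the 38, the 95% interval of the difference in the fit without the block lay inside a 2-fold change either way. The intervals were narrow for Aldoa (-0.14 to 0.39), Gapdh (-0.31 to 0.40), Pkm (-0.34 to 0.33) and Slc2a1 (-0.43 to 0.34). For Slc2a3, Pfkl, Aldoc, Pdk1, Adm, Bnip3, Egln1, Egln3 and P4ha2 the interval reached past 2-fold in at least 1 direction, as wide as -1.96 to 1.00 for Slc2a3 and -1.76 to 1.47 for Egln3, so a change of that size was not excluded by that fit. With the replicate block, the intervals of Slc2a3 (-1.16 to 0.21), Aldoc (-0.10 to 1.28) and Adm (-1.14 to 0.40) still reached past 2-fold. Those of the other genes just named lay inside it with the block, such as Egln3 (-0.70 to 0.41).

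**Figure D3:**
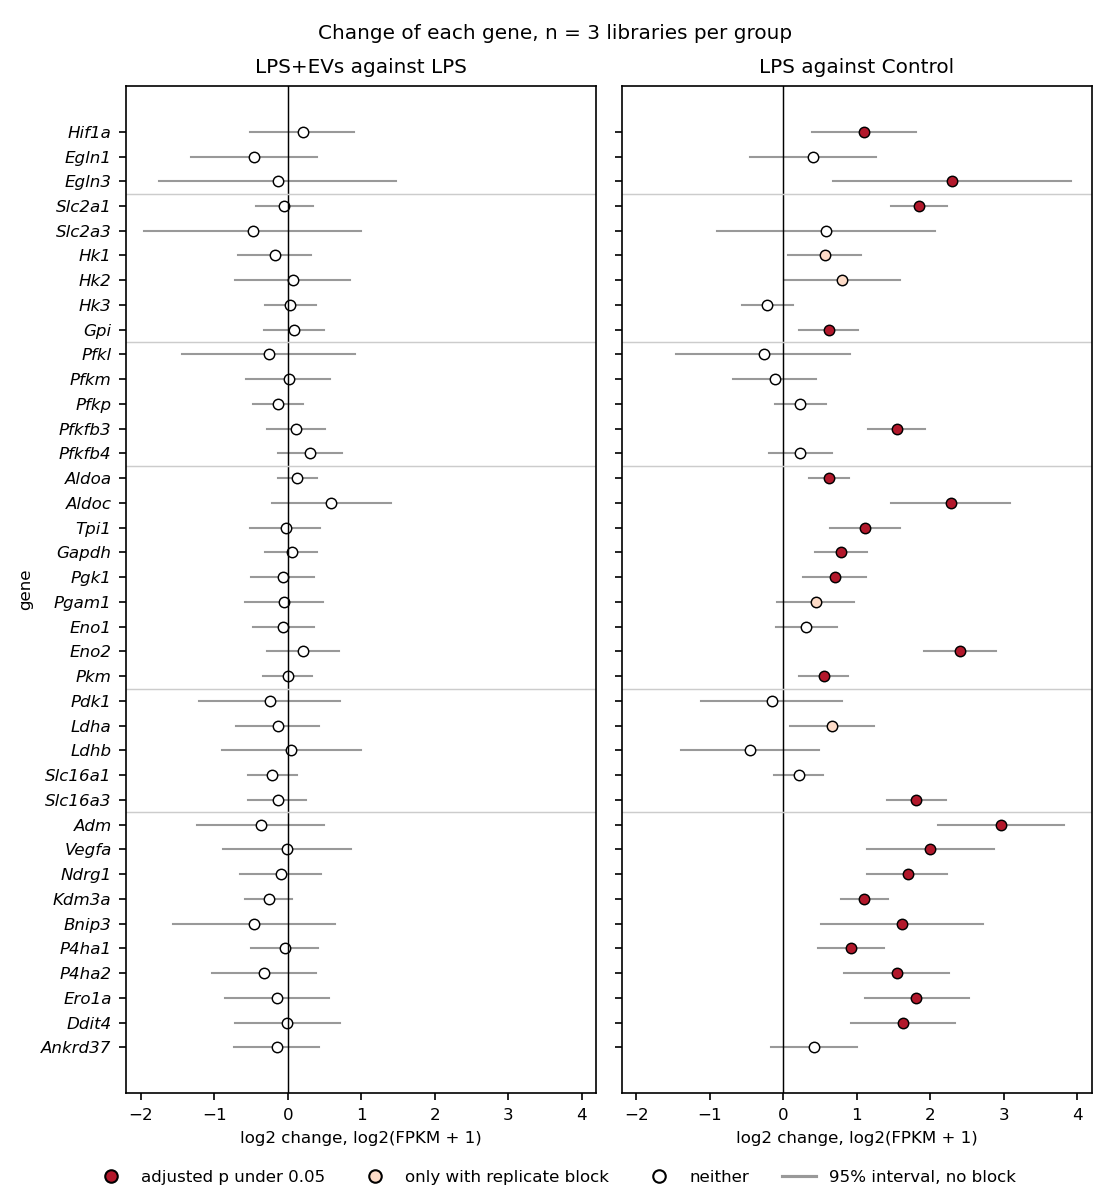
Log2 change of each gene on the log2(FPKM + 1) scale with its 95% interval (no block) in LPS+EVs against LPS at the left and LPS against Control at the right, 3 libraries per group. On the left all 38 points are open and all intervals cross 0; on the right 22 points are filled dark red (adjusted p under 0.05) and 4, for Hk1, Hk2, Pgam1 and Ldha, are light (called with the replicate block and not without it).

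Following each replicate number, 5 genes were higher with vesicles in 3 of 3 numbers (Pfkfb3, Pfkfb4, Aldoa, Aldoc and Gapdh) and 4 were lower in 3 of 3 (Slc16a1, Adm, Bnip3 and P4ha2). Of all tested genes 16.7% were higher and 16.8% lower in all 3 numbers. Aldoc and Aldoa were the 2 members whose LPS+EVs libraries all lay above all LPS libraries, which 3.14% of all tested genes did. Aldoc averaged 24.1 ± 3.34 FPKM in LPS+EVs and 16.4 ± 6.10 FPKM in LPS (log2 change 0.59, SE 0.36, limma adjusted p = 0.999), with differences of 0.47, 0.24 and 1.06 within numbers. Aldoa averaged 1911 ± 93.9 FPKM in LPS+EVs and 1749 ± 51.2 FPKM in LPS (0.13, SE 0.12, limma adjusted p = 0.999). For Hif1a the mean was 128 ± 1.42 FPKM in LPS+EVs and 114 ± 34.5 FPKM in LPS, and the 3 numbers did not share a direction (0.24, -0.25 and 0.61). In numbers 1 and 3 the log2 difference was below 0 for Slc2a3 (-0.80 and -0.73), Egln1 (-0.51 and -1.02), Slc16a3 (-0.32 and -0.32) and Hk1 (-0.34 and -0.32), and in number 2 it was above 0 for each of them (0.10, 0.14, 0.22 and 0.12). Other members had the same signs, among them Pfkl (-0.47, 0.36 and -0.67 in numbers 1, 2 and 3) and Egln3 (-0.17, 0.36 and -0.62). Pdk1, Pgam1, Eno1, Pkm and Pfkp had them too. The share of all tested genes with these signs was not counted.

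LPS+EVs cultures were also set against Control, a comparison that shares its Control libraries with the one above. Of the 38 genes 22 rose and 0 fell (limma, adjusted p under 0.05), where 13.5% of all tested genes rose and 30.8% fell. With the replicate block 26 rose and 0 fell, where 17.8% of all rose and 37.4% fell. Under median-of-ratios scaling 28 rose and 0 fell, where 20.1% of all rose and 22.0% fell. In log2 change, Eno2 stood at 2.60 in LPS+EVs against Control and 2.40 in LPS against Control, Aldoc at 2.87 and 2.28, Adm at 2.59 and 2.96, Slc2a1 at 1.80 and 1.85, and Hif1a at 1.30 and 1.10. Eno2 and Slc2a1 again had the smallest adjusted p (5.73e-05 and 0.000111, limma). Pfkfb4 passed in LPS+EVs against Control only just (log2 change 0.53, SE 0.19, limma adjusted p = 0.049) and was lost when any of the 6 libraries was left out (0.0800 to 0.149), with no filter (0.0835), with an added 0.1 (0.0502) and in libraries 1 and 3 alone (0.0769). Bnip3 did not pass there without the block (log2 change 1.15, limma adjusted p = 0.0832) and passed with it (0.00151). Hk2, Pgam1 and Ldha again passed with the block and not without it (limma adjusted p = 0.00406, 0.0128 and 0.00429). Egln3 (2.15, 0.0368), Pgk1 (0.63, 0.0264) and Pkm (0.55, 0.0164) passed. Egln3 was lost without LPS+EVs replicate 1 or 3 or Control replicate 1 or 2 (0.0537 to 0.110), with no filter (0.0830) and by limma-voom (0.0628). Pgk1 was lost without LPS+EVs replicate 1 or 2 or Control replicate 2 or 3 (0.0577 to 0.0878), in libraries 1 and 3 alone (0.110) and with no filter (0.0651), and Pkm without LPS+EVs replicate 1 or Control replicate 2 or 3 (0.0567 to 0.0583).

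Where 2 or 3 paralogs perform 1 step, their shares of the family's summed FPKM were set apart between LPS-treated and Control libraries in several families. Egln3 made up 45.5 ± 6.79% in LPS+EVs, 39.8 ± 5.6% in LPS and 13.9 ± 9.74% in Control of Egln1 and Egln3 together. Slc16a3 made up 87.4 ± 2.1% in LPS+EVs, 86.9 ± 1.23% in LPS and 68.6 ± 2.92% in Control of the 2 lactate transporters. Pfkfb3 made up 85.8 ± 2.68% in LPS+EVs, 87.2 ± 4.5% in LPS and 73.9 ± 0.502% in Control of Pfkfb3 and Pfkfb4. In each of these families every LPS+EVs and LPS library was above every Control library, and the means of LPS+EVs and LPS differed by less than the larger of their SDs.

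Eno2 took 11.4 ± 2.41% in LPS+EVs, 10.1 ± 4.67% in LPS and 2.35 ± 0.252% in Control of the enolase sum, so Eno1 remained the main enolase throughout. Aldoc took 1.25 ± 0.23% in LPS+EVs, 0.924 ± 0.322% in LPS and 0.225 ± 0.111% in Control of the aldolase sum, and its share in every LPS+EVs and LPS library was again above every Control library. Among the hexokinases Hk2 took 31.4 ± 6.0% in LPS+EVs, 29.8 ± 5.3% in LPS and 19.7 ± 4.09% in Control, and Hk3 46.3 ± 5.56% in LPS+EVs, 45.1 ± 6.34% in LPS and 60.6 ± 4.98% in Control. Hk3 was the largest of the 3 in every library, and its LPS+EVs and LPS shares were below all Control shares. Slc2a1 made up at least 91.9% of the 2 glucose transporters and Ldha at least 99.7% of the lactate dehydrogenases in every library. These shares carry no test.

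**Figure D4:**
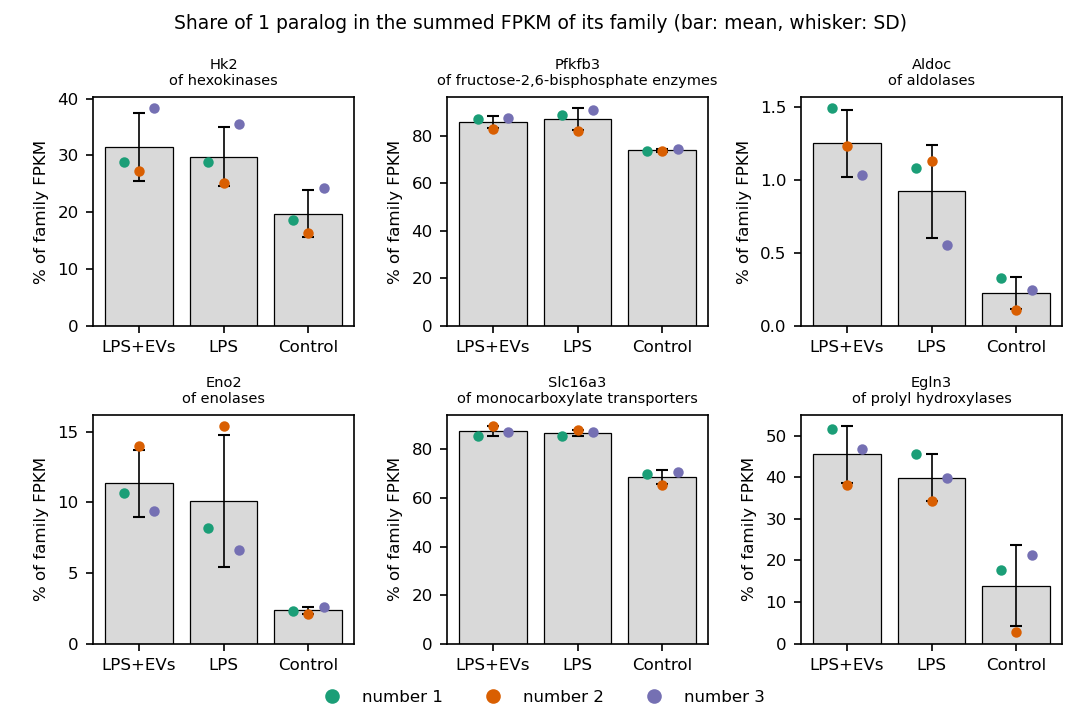
Share of 1 paralog in the summed FPKM of its family in LPS+EVs, LPS and Control libraries, in percent, with bars for the group mean, whiskers for the SD and 1 point per library coloured by replicate number. Control bars are the lowest for Hk2, Pfkfb3, Aldoc, Eno2, Slc16a3 and Egln3, and the whiskers of the LPS+EVs and LPS bars overlap in each panel.

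Promoter sequence was examined because HIF-1 is known to bind the core ACGTG, or the same core with G as its first base. RefSeq start sites of the rat assembly GRCr8, a later build than the mRatBN7.2 of the expression table, gave a window of 300 bases (250 before the start to 50 after it) for 34 of the 38 genes, and Slc2a3, Pgk1, Ndrg1 and Ero1a had none in the table used. The 6 promoters printed here are those with ACGTG on either strand and the largest log2 change in LPS against Control. They are written 5′ to 3′ on the strand of the gene, with the motif in capitals (the Aldoc motif lies on the other strand).
Eno2 (chr4:159267171-159267470, minus strand): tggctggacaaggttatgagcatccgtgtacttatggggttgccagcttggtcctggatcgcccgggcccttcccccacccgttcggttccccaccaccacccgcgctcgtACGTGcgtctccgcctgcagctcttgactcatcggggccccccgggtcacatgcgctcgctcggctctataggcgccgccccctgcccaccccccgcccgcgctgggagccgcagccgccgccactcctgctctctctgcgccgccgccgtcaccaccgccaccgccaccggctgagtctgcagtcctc
Aldoc (chr10:63715294-63715593, plus strand): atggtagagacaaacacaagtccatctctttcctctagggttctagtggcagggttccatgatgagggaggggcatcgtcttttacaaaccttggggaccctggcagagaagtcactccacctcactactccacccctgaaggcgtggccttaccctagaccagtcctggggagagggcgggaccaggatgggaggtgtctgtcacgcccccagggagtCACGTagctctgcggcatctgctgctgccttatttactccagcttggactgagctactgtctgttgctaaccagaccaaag
Slc2a1 (chr5:138002272-138002571, plus strand): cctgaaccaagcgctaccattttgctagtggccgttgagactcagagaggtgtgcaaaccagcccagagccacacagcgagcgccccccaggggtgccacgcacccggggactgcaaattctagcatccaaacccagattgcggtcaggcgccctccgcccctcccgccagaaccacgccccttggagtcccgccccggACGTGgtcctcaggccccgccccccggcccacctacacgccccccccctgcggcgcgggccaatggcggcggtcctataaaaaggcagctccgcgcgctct
Ddit4 (chr20:28436988-28437287, minus strand): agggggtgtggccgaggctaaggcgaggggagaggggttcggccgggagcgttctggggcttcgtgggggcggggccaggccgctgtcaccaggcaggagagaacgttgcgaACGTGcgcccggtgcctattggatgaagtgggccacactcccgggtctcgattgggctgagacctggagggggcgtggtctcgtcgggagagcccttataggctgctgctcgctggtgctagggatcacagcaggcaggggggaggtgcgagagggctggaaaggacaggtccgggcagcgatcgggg
Bnip3 (chr1:203154913-203155212, minus strand): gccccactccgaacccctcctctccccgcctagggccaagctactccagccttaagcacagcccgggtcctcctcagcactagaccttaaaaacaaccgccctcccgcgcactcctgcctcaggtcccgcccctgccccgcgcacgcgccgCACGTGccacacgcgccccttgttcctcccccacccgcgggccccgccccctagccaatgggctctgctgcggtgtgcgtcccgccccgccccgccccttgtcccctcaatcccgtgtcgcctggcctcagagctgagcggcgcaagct
P4ha2 (chr10:38743644-38743943, plus strand): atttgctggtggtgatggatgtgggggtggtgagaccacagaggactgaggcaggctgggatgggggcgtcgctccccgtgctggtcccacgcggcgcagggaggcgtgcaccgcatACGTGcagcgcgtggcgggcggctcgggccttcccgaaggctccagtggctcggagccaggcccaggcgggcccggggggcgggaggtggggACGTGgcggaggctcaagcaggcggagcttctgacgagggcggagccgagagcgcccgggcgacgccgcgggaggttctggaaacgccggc
Counted from the start site, the first base of the motif lay at -139 in Eno2, -31 in Aldoc, -51 in Slc2a1 and -138 in Ddit4. P4ha2 held it at -133 and again at -41. In Bnip3 the copies at -99 and -98 overlap on opposite strands as the palindrome CACGTG.

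The core ACGTG was present in 22 of the 34 genes with a window (64.7%), against 27.2% of the 8740 tested genes with one and 20.9% of all 27457 genes with one. The other core, GCGTG, was about as common in members as in tested genes (52.9% and 51.9%, against 32.4% of all genes). The palindrome CACGTG, which holds the core on both strands, was in 17.6% of members, 10.1% of tested genes and 7.08% of all genes. Member windows held 20.9 CG dinucleotides on average, tested genes 21.1 and all genes 11.8. The list was assembled from known HIF-1 targets, so the motif and the choice of members are not independent. Within the list ACGTG did not separate the genes that moved: 12 of 22 genes with it rose in LPS against Control (median log2 change 0.64) and 7 of 12 without it (median 0.95). Slc16a3, Adm, Vegfa and Egln3, all raised, had no ACGTG in this window, which says nothing of sites elsewhere.

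Genes around the pathway were counted from further lists. Over all tested genes 12.3% rose and 28.7% fell in LPS against Control without the block, and 17.2% and 35.5% with it. The counts below are to be read against these shares. Of 5 tested genes for other sugar and lactate transport, 3 rose and 0 fell in LPS against Control (limma): Bsg, the chaperone that brings lactate transporters to the membrane, with a log2 change of 1.48 (adjusted p = 0.000276), Emb, a related chaperone, with 1.00 (0.00860), and Slc2a6, a lysosomal hexose transporter, with 1.58 (0.0113). Of 11 tested genes of the gate from pyruvate to acetyl-CoA, 6 fell and 0 rose without the block. With it 6 fell and 1 rose, Pdha1, the catalytic subunit of pyruvate dehydrogenase (log2 change 0.46, limma adjusted p = 0.0204 with the block and 0.0895 without it). Pdp1, the phosphatase that reactivates pyruvate dehydrogenase, averaged 1.95 ± 0.421 FPKM in LPS and 5.97 ± 0.629 FPKM in Control (log2 change -1.24, limma adjusted p = 0.000508), and Mpc2, a subunit of the mitochondrial pyruvate carrier, 19.3 ± 0.335 FPKM in LPS and 28.7 ± 2.98 FPKM in Control (-0.55, 0.00483). Pdk2 (-0.73, 0.00604), which inhibits the same complex, and Dlat (-0.52, 0.00834), one of its subunits, fell too.

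In the hypoxia list of further genes, 12 of 33 rose and 1 fell in LPS against Control (21 and 2 with the replicate block), with a median log2 change of 0.66. Hilpda, a lipid droplet protein, had a log2 change of 2.17 (limma adjusted p = 2.07e-06), P4hb, the partner subunit of the collagen hydroxylases, 1.25 (0.000430), and Hmox1, the haem-degrading enzyme, 2.67 (0.000852). The gene that fell was Anln, known for its part in cell division (-2.67, 1.07e-05). In oxygen sensing 1 of 13 genes rose and 1 fell: Vhl, the factor that takes hydroxylated Hif1a to destruction, averaged 36.2 ± 3.74 FPKM in LPS and 11.9 ± 2.22 FPKM in Control (1.53, 0.000220), and Cul2, the scaffold of the same ligase, changed by -0.48 (0.0125). Of 15 regulators of glycolytic genes 0 rose and 6 fell, among them Myc, a growth factor-driven activator of glycolysis, at 6.31 ± 1.10 FPKM in LPS and 59.9 ± 3.16 FPKM in Control (-3.07, 1.78e-05), Ppargc1b (-1.04, 0.0120) and Akt1 (-1.33, 0.0127).

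Among other glycolytic enzymes 0 of 7 rose and 1, Pfkfb2, fell (-0.50, limma adjusted p = 0.0259), against 3 lower with the block. In the glycogen branch 1 of 12 rose, the branching enzyme Gbe1 (0.89, 0.0431), and 3 fell, among them Pygb (-0.72, 0.00454) and Gyg1 (-0.94, 0.0309); with the block 5 rose and 4 fell. By the KEGG annotation carried in the deposited table, 2 of 23 tested genes of glycolysis and gluconeogenesis outside the 38 rose and 8 fell in LPS against Control (median log2 change -0.33). For HIF-1 signaling outside the 38, 10 of 65 rose and 21 fell (median -0.16). Both sets lay near all tested genes, of which 12.3% rose and 28.7% fell (median -0.19). In LPS+EVs against LPS 0 genes of any of these lists or pathways rose or fell, as for all tested genes. For LPS+EVs against Control, the shares over all tested genes were 13.5% raised and 30.8% lowered. In LPS+EVs against Control the hypoxia list had 12 raised and 2 lowered, the pyruvate gate 0 and 5, and the regulators 2 and 4, one of the 2 being Sirt6, a deacetylase that restrains glycolysis (0.56, limma adjusted p = 0.00988).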

How the data were processed

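Total RNA of 9 libraries was analysed, with groups and replicate numbers taken from the labels. Per the submitters' processing notes reads went through fastp, HISAT2 and HTSeq, with R 3.2.0 and genome build mRatBN7.2; versions of the others, the strand setting and the annotation are not given in the sources used here. The authors deposited 1 table of FPKM for 20442 genes in 9 libraries; its header does not name the unit, which was inferred from the values. Within each gene the FPKM moved in whole-read steps for all 18833 genes above 0 in at least 2 libraries (largest deviation 0.00025 reads, tolerance 0.002 reads), up to a whole factor shared by a gene's counts; these reads gave the depths.

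The 11141 genes reaching 1 FPKM in 3 or more libraries, all 38 members among them, were fitted as log2(FPKM + 1) by limma 3.58.1 in R 4.3.3, with a trend, all 9 libraries and 1 mean per group. P-values are two-sided, Benjamini-Hochberg adjusted within each comparison, with a threshold of 0.05. Fold changes are on the log2(FPKM + 1) scale and understate those of low genes. Same-numbered libraries deviated together (correlations of 0.28 to 0.86 across groups, against -0.74 to 0.43 for different numbers), so differences within numbers are given as pairs. The main fit ignores this pairing, as do the fits that leave out libraries. A fit with the number as a block is given where it changes a call and for some other genes. Alternatives were median-of-ratios scaling, no filter, an added 0.1, the 6 compared libraries, the block alone and with scaling, libraries 1 and 3 alone, limma-voom on recovered reads and leaving out each library.

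The members, lists and tests were chosen with earlier results of these data known. Every member is named; values per library are given for Hif1a, the paralog families and the 8 smallest adjusted p in LPS against Control, and up to 4 called genes per further list. Scripts were checked on simulated data. Promoters are RefSeq, GRCr8. Python 3.11.15, numpy 2.4.6, pandas 2.3.3 and matplotlib 3.10.9 were used.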

Additional observations from a re-analysis of the deposited data

How the results depend on the processing

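The count of members raised in LPS against Control ran from 16 to 31 over all alternatives and in LPS+EVs against Control from 18 to 28, against 22 in each as reported; in LPS+EVs against LPS it was 0 under all of them. Members lowered in LPS against Control ran from 0 to 1 when 1 library was left out (Ldhb, without LPS replicate 3), and 1 member, Pdk1, was lowered in LPS+EVs against Control in libraries 1 and 3 alone (log2 change -0.71, limma adjusted p = 0.0490). Genes raised in LPS+EVs against LPS ran from 0 to 1 when 1 library was left out (1 without LPS replicate 2). Median-of-ratios scaling in the fit with the replicate block raised the count of all genes called higher to 2754 in LPS against Control and 2911 in LPS+EVs against Control. Median-of-ratios scaling alone shifted the split of calls over all genes: 2038 raised and 2265 lowered in LPS against Control, against 1368 and 3201 as deposited, and 2244 and 2455 in LPS+EVs against Control, against 1505 and 3436. The replicate block changed no call of a member beside those given (26 raised in both comparisons with Control). Over the single members, 468 of the values under an alternative stayed on their side of the threshold in LPS against Control, 39 passed newly and 25 were lost; in LPS+EVs against Control these were 486, 22 and 24, and in LPS+EVs against LPS all 532 stayed. No called value changed sign. The causes were not tested. Limma-voom on the recovered reads called 1338 genes higher and 3173 lower in LPS against Control. Ldhb, Pfkm, Adm, Aldoc and Egln3 fell to 13, 70, 15, 61 and 46 reads in their lowest library, which limits their precision.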
